A study of Mus musculus with 6 samples.

Results

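The olfactomedin genes described here are Olfml1, Olfml2a, Olfml2b, Olfml3, Olfm1 and Olfm2, 6 of the 34745 genes in the expression table of a mouse fibroblast experiment. They were selected by name, as a gene family, from a comparison of D-gal-treated with control cells in which Olfml2b was already known to stand out, so their own differences in that comparison are given as values without a test. Of the 6 members, 4 passed the filter on low counts and were among the 13407 genes tested, and Olfml1 and Olfml2a were not. All libraries came from NOR-10, a single mouse line of skeletal muscle fibroblasts grown in DMEM with 10% fetal bovine serum and antibiotics. The control group (3 libraries) received PBS and the D-gal group (3 libraries) received D-galactose at 20 mg/mL for 3 days, a sugar treatment that the study used to induce senescence. Both groups were otherwise the same unmodified line, and no source used here says that the libraries of a group came from separate cultures, so p-values measure the spread between these libraries, which may be technical.

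Olfactomedin-domain proteins share a propeller-shaped domain, and most of them are secreted glycoproteins. OLFML2A and OLFML2B, also called photomedins, bind chondroitin sulfate E and heparin. OLFML3 is a secreted protein that acts in the BMP and chordin system, and OLFM1 and OLFM2 are noelins, best known from the nervous system. The domain is also part of the latrophilins, which are adhesion receptors of the cell surface, and of myocilin and gliomedin.

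The libraries held 16876087 to 20830349 counts in the control group and 13759108 to 15157064 in the D-gal group, so that 3 counts, used as the floor below which a level is not distinguished from 0, stood for 0.144 to 0.178 CPM (counts scaled by the library total) in the control libraries and 0.198 to 0.218 in the D-gal libraries. Mitochondrial genes took 4.26 to 4.44% of the counts in the control group and 4.87 to 4.98% in the D-gal group. Of the 13 fibroblast markers examined, 12 were tested. The summed level of the 13 was 9020 to 9206 CPM in the control group and 6376 to 6662 CPM in the D-gal group. In the D-gal group 1 marker passed an adjusted p-value of 0.05 upward and 9 passed it downward (edgeR), where 16.9% of all genes tested were higher and 17.8% were lower. Lum, another fibroblast marker, had 1 read in all libraries together. Pax7, Myf5 and Myod1 of the myogenic list, Rbfox3 of the neural list, and Adipoq, Cidec and Lep of the adipocyte list were at 0 in every library. The summed level of the 6 macrophage markers was 21.0 to 47.0 CPM in the control group and 37.9 to 44.6 CPM in the D-gal group. The 6 endothelial markers summed to 4.46 to 5.34 CPM and 3.13 to 3.43 CPM, the 8 myogenic markers to 5.29 to 5.98 CPM and 3.70 to 4.07 CPM, the 7 neural markers to 10.3 to 12.5 CPM and 10.98 to 15.8 CPM, and the 5 adipocyte markers to 0.948 to 1.64 CPM and 1.21 to 2.04 CPM, in the control and D-gal groups respectively. The part of these shifts in the values below was not tested.

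In GRCm38 coordinates of the deposited table, Olfml2b (ENSMUSG00000038463) lies on the plus strand of chromosome 1 from 170644532 to 170682789 and has 1 annotated transcript with 8 exons. Its paralog Olfml2a (ENSMUSG00000046618) lies on the plus strand of chromosome 2 from 38931978 to 38963753, also with 1 transcript of 8 exons. Olfml3 (ENSMUSG00000027848) lies on the minus strand of chromosome 3 from 103722222 to 103738001 with 4 transcripts, and Olfml1 (ENSMUSG00000051041) on the plus strand of chromosome 7 from 107567446 to 107591094 with 1 transcript. Olfm1 (ENSMUSG00000026833) lies on the plus strand of chromosome 2 from 28192992 to 28230736 with 5 transcripts. Olfm2 (ENSMUSG00000032172) lies on the minus strand of chromosome 9 from 20667986 to 20728219, whereas GENCODE release M21 places it from 20667690 to 20746349, so the most upstream exons lie outside the deposited locus. None of the members overlaps an exon of another annotated gene, and Gm13473 lies inside an intron of Olfml2a. Of the sequence words of 31 bases in each gene, 0% in Olfml2b, Olfml1, Olfm1 and Olfm2, 0.415% in Olfml2a and 1.54% in Olfml3 also occurred in other genes.

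The 250 bases before the annotated start are shown for 3 members, the photomedin with the largest difference between the groups, its near-silent paralog, and Olfml3, which lay between them. They are from RefSeq (GRCm38.p6), written 5′ to 3′ on the strand of the gene, with matches to the motifs searched in capitals. The windows are chr1:170644282-170644531 on the plus strand for Olfml2b, chr2:38931730-38931979 on the plus strand for Olfml2a and chr3:103738002-103738251 on the minus strand for Olfml3.
Olfml2b: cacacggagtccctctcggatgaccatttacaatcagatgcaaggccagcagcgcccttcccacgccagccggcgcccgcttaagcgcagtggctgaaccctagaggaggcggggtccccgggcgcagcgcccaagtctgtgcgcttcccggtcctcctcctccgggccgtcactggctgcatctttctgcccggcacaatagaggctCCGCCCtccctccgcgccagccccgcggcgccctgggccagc
Olfml2a: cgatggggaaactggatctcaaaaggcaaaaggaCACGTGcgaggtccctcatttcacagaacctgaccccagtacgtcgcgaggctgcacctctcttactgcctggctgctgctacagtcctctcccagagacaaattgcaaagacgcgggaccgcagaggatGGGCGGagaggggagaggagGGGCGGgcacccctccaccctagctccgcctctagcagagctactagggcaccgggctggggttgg
Olfml3: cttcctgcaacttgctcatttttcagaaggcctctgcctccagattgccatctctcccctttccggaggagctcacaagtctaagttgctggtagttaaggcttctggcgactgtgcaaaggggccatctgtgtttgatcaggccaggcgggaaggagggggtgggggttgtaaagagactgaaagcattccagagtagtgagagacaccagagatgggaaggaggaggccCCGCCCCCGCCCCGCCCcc
Both strands were searched for 7 motifs. The GC box was searched as GGGCGG. The CCAAT box was searched by the letters of its name. The TATA box was searched as TATAAA. The AP-1 site was searched as TGANTCA. The E-box was searched as CACGTG. The CArG box, which is bound by SRF, and the tonicity element TonE were searched by their usual consensus. Only copies of the same motif overlapped in these windows. The Olfml2b window held 1 GC box on the other strand, starting 42 bases before the gene. The Olfml2a window held 2 GC boxes, at 86 and 66 bases, and 1 E-box at 216 bases. The Olfml3 window held 3 GC boxes on the other strand, at 19, 13 and 8 bases, of which those at 19 and 13 adjoin and those at 13 and 8 overlap by 1 base. In windows of the same length, the GC box occurred in 32.7% of 32851 promoters, the CCAAT box in 33.8%, the TATA box in 12.4%, AP-1 in 6.75%, the E-box in 6.02%, TonE in 4.31% and the CArG box in 1.47%. All 6 members were found in the RefSeq table, Olfm1 with 2 starts and Olfm2 with 3. These letters say nothing about which factors bound there. The windows of Olfml2b, Olfml2a and Olfml3 had a GC content of 69.6%, 61.6% and 57.6% with 23, 13 and 6 CpG dinucleotides, against medians of 52.4% and 6 over all promoters.

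Olfml2b, the photomedin that dominated the family in these cells, was about 5 times higher in D-gal-treated cells. Its counts were 1363, 1635 and 1203 in control libraries 1, 2 and 3 and 5064, 6330 and 5454 in D-gal libraries 1, 2 and 3. After scaling for library size (TMM), these were 1188, 1334 and 1215 normalized counts against 5683, 6912 and 6572. The groups were far apart, with the lowest D-gal library 4.26 times the highest control library. Control cells averaged 1246 ± 77.9 (SD, n = 3) and D-gal cells 6389 ± 635 (SD, n = 3), which is a log2 fold change of 2.36 with a standard error of 0.08, or 5.13-fold. In these bulk libraries, a change in the number of cells that express a gene and a change in RNA per cell cannot be told apart. Among all genes tested, Olfml2b had rank 12 by p-value and rank 38 by log2 fold change, a position that the choice of the gene already used. Leaving out each library in turn gave log2 fold changes between 2.30 and 2.44.

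Olfml2a, the other photomedin, was close to the detection limit in both groups. Its counts were 8, 4 and 6 in control libraries 1, 2 and 3 and 7, 1 and 0 in D-gal libraries 1, 2 and 3. The groups overlapped, since D-gal library 1 lay above every control library and the other D-gal libraries below them after scaling. The ratio of the D-gal to the control rate was 0.581, with an exact 95% interval of 0.218 to 1.40 that covers counting error only. A difference of Olfml2a was therefore not detectable at this depth, and the 18 control and 8 D-gal reads compare with 4201 and 16848 reads of Olfml2b.

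Olfml3, the secreted member linked to BMP signaling, was higher in the D-gal group by a smaller margin. Its normalized counts were 442.7, 653.6 and 426.2 in control libraries 1, 2 and 3 and 803.5, 743.6 and 844.7 in D-gal libraries 1, 2 and 3. The groups did not overlap, but control library 2 stood well above the other controls, and the lowest D-gal library was only 1.14 times that library. Control cells averaged 507.5 ± 127 (SD, n = 3) and D-gal cells 797.3 ± 50.8 (SD, n = 3), which is a log2 fold change of 0.65 with a standard error of 0.16. Without control library 2 the log2 fold change was 0.88, and without control library 3 it was 0.54. The coefficient of variation of Olfml3 over the control libraries was 25.0%, larger than in 97.2% of the 2728 tested genes with a mean count within 1.5 times its own, whose median was 5.56%. Over the D-gal libraries it was 6.37%, beside a median of 5.06% in 2865 genes of like mean. The wide spread of Olfml3 was thus seen in the control group, and its source was not tested.

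The noelins Olfm1 and Olfm2, which are mainly known as secreted neuronal proteins, were both higher in the D-gal group but at low levels. Olfm1 had 126.4, 108.5 and 102.0 normalized counts in control libraries 1, 2 and 3 and 187.4, 180.2 and 196.4 in D-gal libraries 1, 2 and 3. The D-gal libraries lay close together and all above the controls, with the lowest 1.43 times the highest control. The mean of Olfm1 was 112.3 ± 12.6 (SD, n = 3) and 188.0 ± 8.13 (SD, n = 3), a log2 fold change of 0.74 with a standard error of 0.12. Olfm2 had 10, 16 and 6 counts in control libraries 1, 2 and 3 and 31, 26 and 33 counts in D-gal libraries 1, 2 and 3. These correspond to means of 9.28 ± 3.53 and 34.3 ± 5.70 normalized counts (SD, n = 3 each) and a log2 fold change of 1.84 with a standard error of 0.32. The groups of Olfm2 did not overlap, and the lowest D-gal library was 2.17 times the highest control. Only 1 of the 3 control libraries was above the level required by the filter, 0.624 CPM, whereas all 3 D-gal libraries were. Olfm2 thus entered the test through the D-gal group, a selection that by itself favors a rise.

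Olfml1, a secreted member that is less well studied, was barely detected. It had 1, 2 and 1 counts in control libraries 1, 2 and 3 and 0, 0 and 1 in D-gal libraries 1, 2 and 3, and every library was under the floor of 3 counts. No fold change is given for it.

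**Figure D1:**
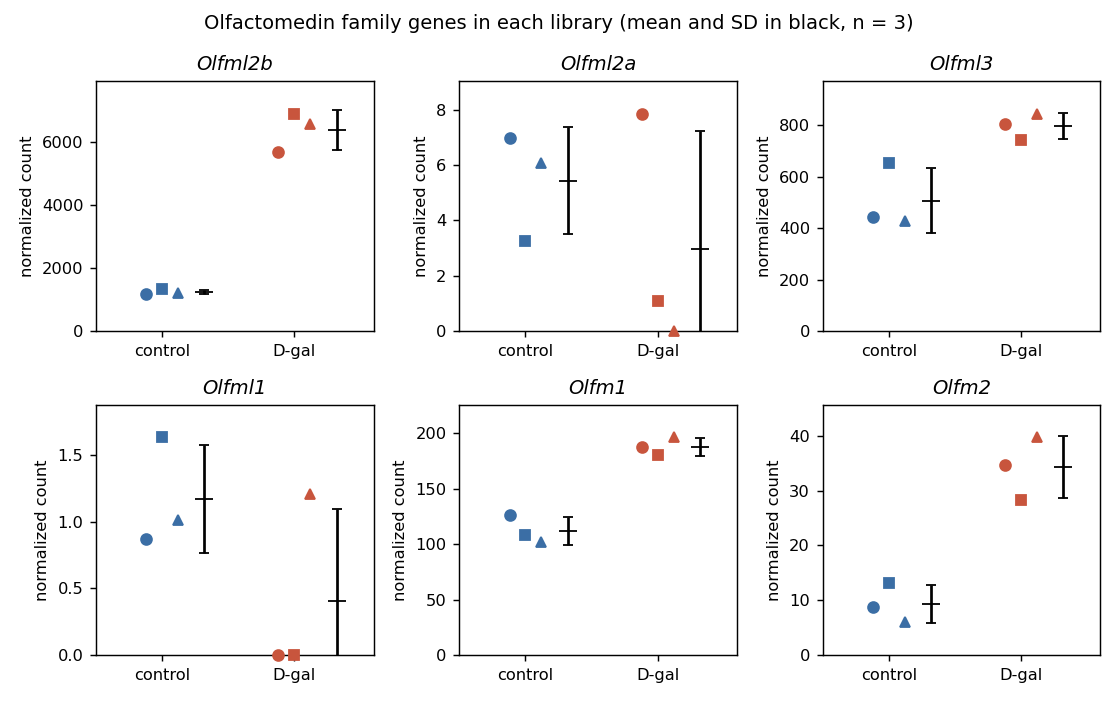
Normalized counts (linear axes from 0) of the 6 olfactomedin genes in each control (blue) and D-gal (red) library, with circles, squares and triangles for libraries 1, 2 and 3 and the mean and SD in black (n = 3, cut at 0). Olfml2b, Olfml3, Olfm1 and Olfm2 show no overlap between the groups, control library 2 of Olfml3 lies at 653.6, and Olfml2a and Olfml1 stay under 10 in every library.

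Under the thresholds of the study, a log2 fold change of 1 or more together with an adjusted p-value below 0.05, 2 of the 6 members, Olfml2b and Olfm2, were called higher. Of all genes tested, 2.37% (318 of 13407) were called higher in this way. At the adjusted p-value alone, Olfml3 and Olfm1 were added, which makes 4 of the 6 members higher and 0 lower, where 16.9% of all genes were higher and 17.8% were lower. Every D-gal library was above every control library in the same 4 members and in 24.1% of all genes tested. Since the members were selected with this comparison known and 1 of them passed the filter only through the D-gal group, nothing is read from these counts. The median log2 fold change over all genes tested was 0.0036.

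**Figure D2:**
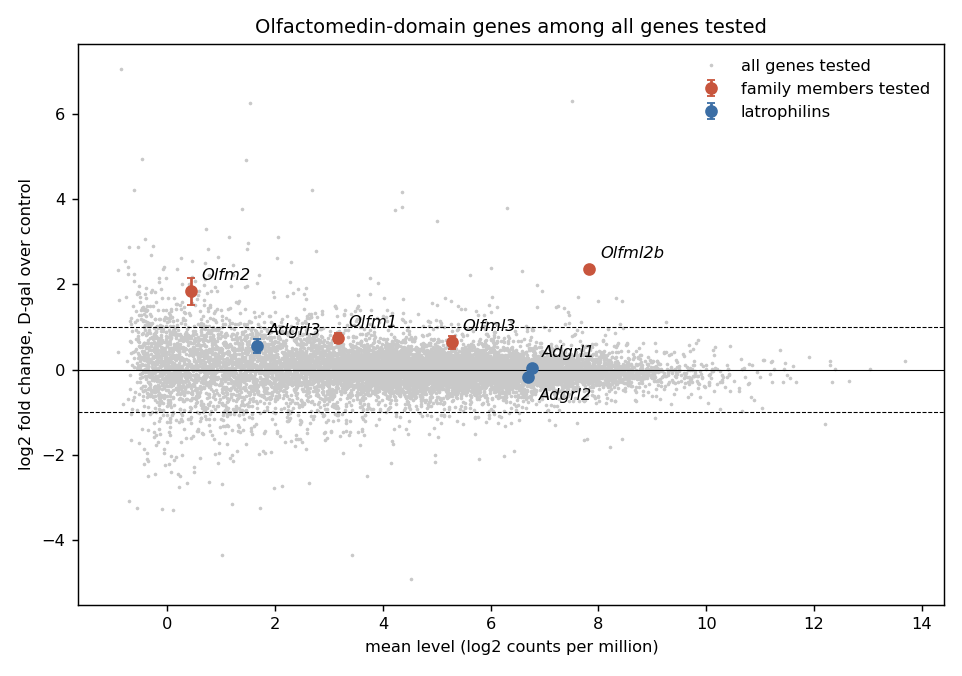
Log2 fold change of D-gal over control (vertical axis) against mean level in log2 CPM (horizontal axis) for all 13407 genes tested (grey), with the 4 tested members in red and the 3 latrophilins in blue, bars showing the standard error and dashed lines a log2 fold change of 1 in size. Olfml2b lies at 2.36 with high counts, Olfm2 at 1.84 with low counts, Olfml3 and Olfm1 between 0 and 1, and the latrophilins between -0.16 and 0.56.

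Levels of different genes were compared per length, as FPKM in the deposited table. Olfml2b was at 23.7 ± 1.48 FPKM (SD, n = 3) in control cells, above 85.1% of the genes tested, and at 124 ± 12.8 FPKM (SD, n = 3) in D-gal cells, above 98.1%. Olfml3 followed with 2.77 ± 0.69 and 4.45 ± 0.28 FPKM, Olfm1 with 1.24 ± 0.14 and 2.12 ± 0.09 FPKM, and Olfm2 with 0.357 ± 0.136 and 1.35 ± 0.22 FPKM (SD, n = 3 each). Olfml2a (0.0573 and 0.0321 FPKM) and Olfml1 (0.0409 and 0.0144 FPKM) were last, and these were the only neighbors in the order whose ranges overlapped, in both groups. Olfml2b was 8.55 times Olfml3 in control cells and 27.9 times Olfml3 in D-gal cells.

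The order was the same in both groups, and also when the length of the union of annotated exons was used instead. The deposited length of Olfml3 was 10787 bases, 1.75 times the 6161 bases its exons cover, because overlapping exons of its transcripts were each counted. With the union of exons, Olfml3 was at 4.85 ± 1.21 and 7.80 ± 0.49 FPKM, Olfm1 at 1.86 ± 0.21 and 3.19 ± 0.14 FPKM, and Olfm2 at 0.205 ± 0.078 and 0.776 ± 0.128 FPKM (SD, n = 3 each). The deposited length of Olfm2, 1530 bases, was only 0.574 times the 2665 bases of its annotated exons. Some of these exons lie outside the deposited locus, so its level on the union of exons may be too low. Olfml2b was then 4.89 times Olfml3 in control cells and 16.0 times in D-gal cells.

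Together the 6 genes took 103 to 124 CPM in the control libraries and 403 to 475 CPM in the D-gal libraries. Olfml2b made up 67.0%, 63.1% and 69.2% of these family counts in control libraries 1, 2 and 3, and 84.6%, 87.9% and 85.9% in D-gal libraries 1, 2 and 3. Olfml3 made up 24.3 to 30.9% of them in the control libraries and 9.45 to 11.96% in the D-gal libraries, although its own level was higher there.

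**Figure D3:**
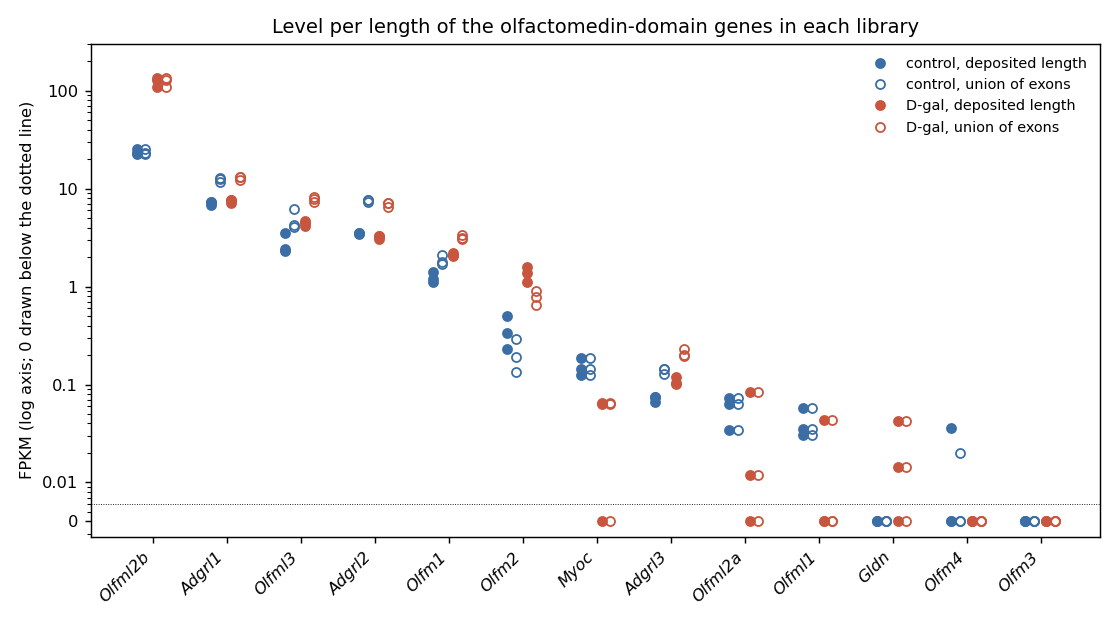
FPKM (log axis, with values of 0 drawn below the dotted line) of the 13 olfactomedin-domain genes in each control (blue) and D-gal (red) library, with filled circles for the deposited gene length and open circles for the union of exons. Olfml2b is highest in all libraries at 22.6 to 25.4 FPKM in control and 110 to 135 FPKM in D-gal cells, and Olfml2a, Olfml1, Gldn, Olfm4 and Olfm3 lie under 0.1.

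The other tested members varied less between replicates than between the groups. The coefficient of variation of Olfml2b was 6.25% over the control and 9.93% over the D-gal libraries. These values were above 80.3% and 92.9% of genes of like mean, whose medians were 3.71% and 2.62%. The coefficient of variation of Olfm1 was 11.2% and 4.33%, and that of Olfm2 was 38.1% and 16.6%. The spread of Olfml2b was thus wide for its level. It was small beside the 5.13-fold difference between the groups, but the choice of Olfml2b from this comparison already used that.

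Of 7 other genes that carry the same domain, 3 were tested, all latrophilins. At an adjusted p-value below 0.05 (edgeR) 1 was higher, 1 was lower and 1 did not pass. Of all genes tested, 16.9% were higher and 17.8% were lower. Adgrl1, the latrophilin with the highest level per length, had 1790 ± 82.9 and 1839 ± 75.2 normalized counts (SD, n = 3 each) in control and D-gal cells, with a log2 fold change of 0.04 with a standard error of 0.05 (edgeR, adjusted p = 0.580). Adgrl2 had 1826, 1853 and 1779 normalized counts in control libraries 1, 2 and 3 and 1676, 1538 and 1675 in D-gal libraries 1, 2 and 3, a log2 fold change of -0.16 with a standard error of 0.05 (edgeR, adjusted p = 0.0288). Adgrl3 had 43.6, 43.2 and 38.4 normalized counts in control libraries and 59.5, 57.9 and 67.5 in D-gal libraries, a log2 fold change of 0.56 with a standard error of 0.16 (edgeR, adjusted p = 0.0295). Neither call was firm. Leaving out any single library put the adjusted p-value of Adgrl3 between 0.0534 and 0.0933 (edgeR). That of Adgrl2 rose above 0.05 without control library 1, control library 2 or D-gal library 2, with a highest value of 0.0895 (edgeR). With the replicate number as a block, the adjusted p-values of Adgrl2 and Adgrl3 were 0.0617 and 0.0793 (edgeR). Reads of Adgrl3 and Adgrl1 cannot be told apart from those of antisense genes over 1582 and 1107 exonic bases (Gm16054 and Gm10644), since the strand setting of the counting was not given. The other 4 genes were at or near the floor. Olfm3, a brain noelin, was at 0 in every library, and Olfm4, a marker of intestinal stem cells, had 1 read. Myoc, which encodes myocilin of the eye, had 5, 8 and 5 reads in control libraries and 2, 2 and 0 in D-gal libraries, a rate ratio of 0.290 with an exact 95% interval of 0.0715 to 0.881 for counting error only. Gldn, a gene of peripheral nerve, had 0 reads in every control library, against 1, 3 and 0 in the D-gal libraries.

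Genes of the molecules that olfactomedin proteins are known to act with were examined as lists. Of 11 ligands and receptors linked to the latrophilins, 6 were tested, 1 was higher and 0 were lower at the adjusted p-value, where 16.9% of all genes were higher and 17.8% were lower. Flrt2, a membrane ligand of the latrophilins, rose from 787.3 ± 16.7 to 1460 ± 106 normalized counts (SD, n = 3 each), a log2 fold change of 0.89 with a standard error of 0.06 (edgeR, adjusted p = 3.49e-05). Unc5b, a netrin receptor that also binds FLRT proteins, had a log2 fold change of 0.08 with a standard error of 0.03 (edgeR, adjusted p = 0.0682). The median log2 fold change of the 6 tested genes was -0.0045, beside 0.0036 for all genes.

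Of 16 receptor components linked to noelin, 7 were tested, 4 were higher and 1 was lower, beside 16.9% and 17.8% of all genes. Gria4, an AMPA receptor subunit, rose from 157.2 ± 21.7 to 416.3 ± 52.4 normalized counts (SD, n = 3 each), a log2 fold change of 1.40 with a standard error of 0.13 (edgeR, adjusted p = 0.000155). Cnih2, an auxiliary AMPA receptor protein, fell from 24, 32 and 23 counts in control libraries to 7, 4 and 4 in D-gal libraries, a log2 fold change of -2.02 with a standard error of 0.33 (edgeR, adjusted p = 0.0024). Named after their values were seen, the other 3 that rose were Tnfrsf19 (a co-receptor of the Nogo receptor), Wasf1 (an actin regulator) and Gria3 (another AMPA receptor subunit), with log2 fold changes of 0.86, 0.39 and 0.10, and the call of Gria3 (edgeR, adjusted p = 0.0493) held only without D-gal library 3 when single libraries were left out. Its adjusted p-value then ranged from 0.0443 to 0.127 (edgeR). Cnih2 entered the test through the control group, since its D-gal libraries were below the filter level. The median of the list was 0.10, and its members moved in both directions.

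Photomedins bind chondroitin sulfate E, a form of the chondroitin chains. Of 22 enzymes that build and sulfate chondroitin chains, 19 were tested, 4 were higher and 2 were lower, beside 16.9% and 17.8% of all genes. Ust, which transfers sulfate to uronic acid in these chains, rose from 131.2 ± 7.24 to 422.7 ± 93.1 normalized counts (SD, n = 3 each), a log2 fold change of 1.69 with a standard error of 0.17 (edgeR, adjusted p = 0.000188). The control libraries held 141, 167 and 133 counts of Ust and the D-gal libraries 285, 459 and 371, without overlap. The other 13 tested enzymes did not pass, and the median log2 fold change of the list was 0.0039. Whether the change of Ust bears on the form that photomedins bind was not tested.

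Of 23 genes of the BMP and tolloid system, in which OLFML3 is placed, 16 were tested. Of these, 1 was higher and 8 were lower, where 16.9% of all genes were higher and 17.8% were lower. Nog, the secreted BMP antagonist noggin, rose from 88.4 ± 9.75 to 211.6 ± 2.45 normalized counts (SD, n = 3 each), a log2 fold change of 1.26 with a standard error of 0.11 (edgeR, adjusted p = 0.000133). Tll1, a tolloid-like protease that cleaves chordin, fell from 44.4 ± 5.15 to 17.7 ± 4.60 normalized counts (SD, n = 3 each), a log2 fold change of -1.32 with a standard error of 0.25 (edgeR, adjusted p = 0.0045). The median log2 fold change of the 16 genes was -0.18.

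Of 16 genes of SRF and smooth muscle, which OLFM2 has been linked to, and of TGF-beta ligands, 14 were tested. At the adjusted p-value 9 were higher and 2 were lower, where 16.9% of all genes were higher and 17.8% were lower. Both lower genes were TGF-beta ligands, Tgfb1 and Tgfb3, with log2 fold changes of -0.54 and -0.29. Tgfb2, at 0.60, was among the 9 higher. Itga8, an integrin subunit of contractile cells, rose from 46.1 ± 8.12 to 110.2 ± 5.0 normalized counts (SD, n = 3 each), a log2 fold change of 1.27 with a standard error of 0.16 (edgeR, adjusted p = 0.000683). Myh11, the smooth muscle myosin heavy chain, rose from 23, 15 and 8 counts in control libraries to 33, 30 and 31 in D-gal libraries, a log2 fold change of 1.38 with a standard error of 0.32 (edgeR, adjusted p = 0.0117). Control library 3 lay below the filter level of 0.624 CPM, so Myh11 entered the test only with D-gal libraries counted in. It was not tested with at least 10 counts in every library. Leaving out 1 library gave adjusted p-values of 0.0064 to 0.0460 (edgeR). Srf itself had a log2 fold change of 0.03 with a standard error of 0.04 (edgeR, adjusted p = 0.559). The median of the list was 0.40.

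**Figure D4:**
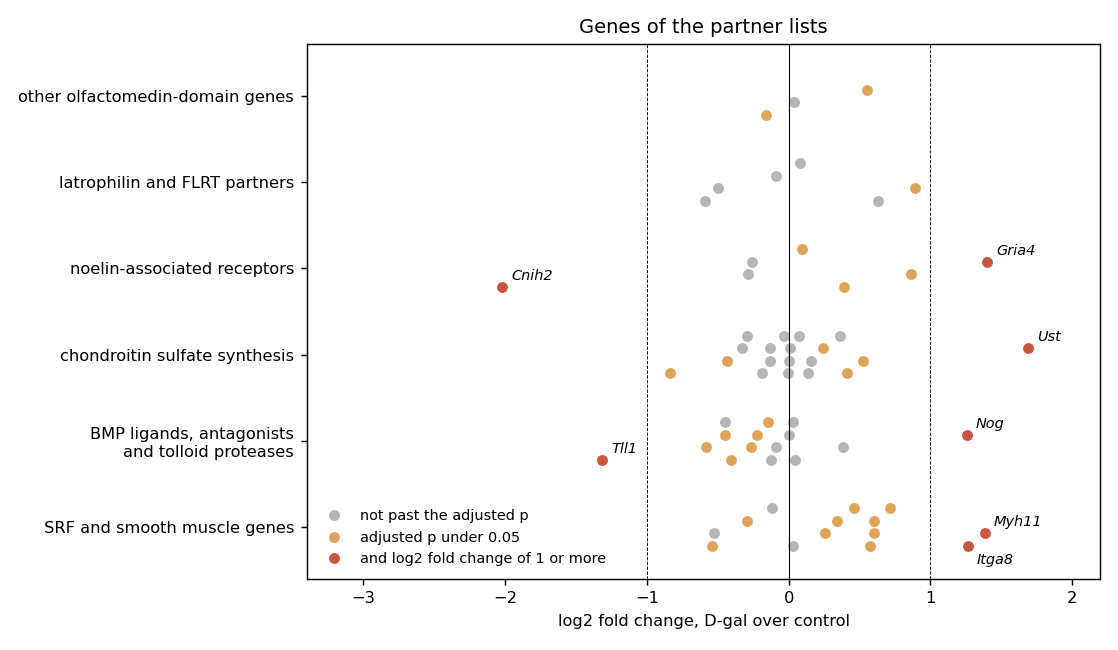
Log2 fold change of D-gal over control (horizontal axis) of tested genes of each partner list, 1 point a gene, in grey where the adjusted p-value did not pass 0.05, in yellow where it did and in red where the log2 fold change was also at least 1 in size (dashed lines). The BMP list lies mostly left of 0, and the 7 genes in red are named. The smooth muscle list, which includes TGF-beta ligands, lies mostly right of 0 with 9 of 14 genes higher.

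The genes beside the members in the genome moved in both directions. Of the 12 nearest tested genes on either side, 5 were higher, 3 were lower and 4 did not pass the adjusted p-value (edgeR), beside 16.9% of all genes higher and 17.8% lower. Beside Olfml2b, Nos1ap (54.7 kb away, an adaptor of neuronal nitric oxide synthase) had a log2 fold change of 0.86 with a standard error of 0.23 (edgeR, adjusted p = 0.0200), and Atf6 (21.9 kb away, a sensor of endoplasmic reticulum stress) one of 0.54 with a standard error of 0.06 (edgeR, adjusted p = 0.000502). Both were smaller than the 2.36 of Olfml2b. Beside Olfml1, which was hardly detected, Ppfibp2 (4.0 kb away, a liprin-binding protein) rose from 30.8 ± 6.50 to 72.5 ± 4.87 normalized counts (SD, n = 3 each), a log2 fold change of 1.23 (edgeR, adjusted p = 0.0020), and Gm8995, which lies 1056 kb away, had one of 0.20. Beside Olfml2a, the ribosomal protein gene Rpl35 (37.8 kb away) fell by 0.34 on the log2 scale (edgeR, adjusted p = 0.0026) and Nr6a1 (4.29 kb away), a nuclear receptor, had a log2 fold change of -0.05. Beside Olfml3, the kinase gene Hipk1 (1.8 kb away) had a log2 fold change of 0.15 and Atg4a-ps (76.2 kb away), a pseudogene, one of 0.04. Beside Olfm1, the collagen gene Col5a1 (153 kb away) had a log2 fold change of -0.09 and 1700007K13Rik (231 kb away) one of 0.70, and beside Olfm2, the collagen gene Col5a3 (41.8 kb away) had one of -0.33. Ppfibp2, Atf6 and Rpl35 passed in every leave-one-out fit. Leaving out 1 library put the highest adjusted p-value of Nos1ap at 0.0695 (without D-gal library 1), of Hipk1 at 0.108 (without control library 2), of Gm8995 at 0.0942 (without D-gal library 1), of Col5a1 at 0.0854 (without control library 2) and of Col5a3 at 0.129 (without control library 1), all by edgeR. With 1 library left out, the call of Nos1ap held only without control library 2 or D-gal library 3, those of Hipk1 and Gm8995 only without D-gal library 2, that of Col5a1 only without control library 1 and that of Col5a3 only without D-gal library 3. 1700007K13Rik passed without D-gal library 2 (edgeR, adjusted p = 0.0220).

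The genes whose pattern over the 6 libraries was most like that of Olfml2b were found by the root mean square difference of log2 CPM, each gene centered on its own mean, among 13406 other tested genes. The nearest was Akr1b3, aldose reductase, at 0.066, followed by Ranbp3l at 0.097, Cnnm1 at 0.10, Stc1, the secreted stanniocalcin-1, at 0.102 and Ampd3, an AMP deaminase, at 0.174. Their log2 fold changes were 2.32, 2.23, 2.53, 2.40 and 2.23, close to the 2.36 of Olfml2b, as the measure requires. Akr1b3 had 536.0 ± 30.5 and 2688 ± 357 normalized counts (SD, n = 3 each) in the control and D-gal groups. Of all genes, 3 lay within 0.1 and 7 within 0.2 of Olfml2b. With log2(FPKM + 1) in place of log2 CPM, 3 of the 5 nearest genes were shared. The likeness rests on 6 libraries in 2 groups and is a description of these libraries.

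**Figure D5:**
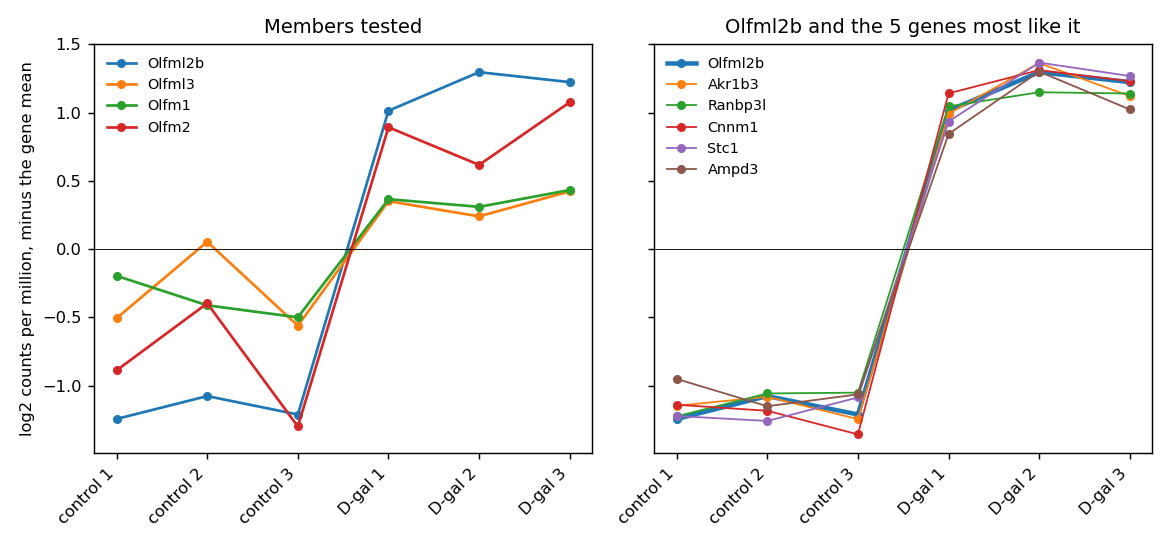
Log2 CPM minus the mean of each gene (vertical axis) in the 6 libraries (horizontal axis) for the 4 tested members (left) and for Olfml2b with the 5 genes most like it (right), 1 line a gene. Olfml2b runs from about -1.24 in control library 1 to 1.30 in D-gal library 2, Olfm1 and Olfml3 span a narrower range with control library 2 of Olfml3 at 0.05, and the 5 nearest genes follow Olfml2b in both groups.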

How the data were processed

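RNA-seq libraries of NOR-10 cells (3 control, 3 D-gal) were grouped by their labels, and dose, duration and medium came from the methods of the study. Read counts per gene were deposited by the authors without normalization, and FPKM values, which the authors computed from the counts, the gene length and the library total, were deposited in the same table. Reads were checked with FastQC and trimmed with Trimmomatic according to the methods, and aligned with HISAT2 (version 2.0.4) according to the submitters' processing notes. The counting tool, annotation and strand setting were not given in the sources used here. The labels name an RNA-seq kit, whereas the methods name a small RNA kit. The table holds no columns of comparisons.

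All genes were tested together with edgeR (version 4.0.16, R 4.3.3), with TMM normalization, filterByExpr (minimum count 10, here 0.624 CPM), the quasi-likelihood test and Benjamini-Hochberg adjustment over 13407 genes, without covariates. The study's thresholds were used, a log2 fold change of 1 or more in size together with an adjusted p-value below 0.05. Counts were scaled to the mean TMM library size to give normalized counts, and each standard error was obtained from the log2 fold change and its F statistic. The common biological coefficient of variation was 9.47%. Rate ratios have exact 95% binomial intervals and floors of 3 counts, which cover counting error only. All replicate pairs differed by more than sampling noise (a chi-square of 6.00 to 9.42 for each degree of freedom), so every library was counted.

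The family members, the partner and marker lists, the rule for named genes and the alternatives were chosen with earlier results of these data known. Named were all members, all other olfactomedin-domain genes, from each other list the genes called at both thresholds (at most 4) or otherwise the 2 with the smallest p-value, the nearest tested neighbors and the 5 genes most like Olfml2b. Some genes that fall under this rule are not reported here. Wasf1, Tnfrsf19, Gria3, Srf, Tgfb1, Tgfb2 and Tgfb3 were named outside this rule, after their values were seen. Alternatives were DESeq2 (version 1.42.0), RLE size factors, no filter, a minimum of 10 counts per library, a block for the replicate number, each library left out, limma (version 3.58.1) on log2(FPKM + 1) and log2(FPKM + 0.1), no fold criterion, and the union of exons as gene length. Mrtfa was matched through its older symbol Mkl1. The fits were tested on simulated counts with known changes. Gene positions and overlaps came from GENCODE release M21 (GRCm38), and promoters from RefSeq (GRCm38.p6).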

Additional observations from a re-analysis of the deposited data

How the results depend on the processing

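The count of all genes called, 564, lay between 383 and 627 under DESeq2, RLE size factors, both other filters and limma on log2(FPKM + 0.1), and between 491 and 572 with 1 library left out. It was 120 under limma on log2(FPKM + 1) and 4661 without the fold criterion. Members called were 2, and 1 with at least 10 counts in every library, where Olfm2 was not tested, and 1 under limma on log2(FPKM + 1), where the log2 fold changes of Olfm2 and Olfm1 were 0.79 and 0.48 on the log2(FPKM + 1) scale, which understates the change of low genes. Under the count-based fits with all libraries, log2 fold changes ranged from 2.35 to 2.36 for Olfml2b, 0.64 to 0.67 for Olfml3, 0.73 to 0.74 for Olfm1 and 1.84 to 1.87 for Olfm2. Leaving out 1 library gave 0.68 to 0.83 for Olfm1 and 1.63 to 2.18 for Olfm2. Every alternative that could be fitted kept the sign of these 4 members. Of the other olfactomedin-domain genes, 2 passed the adjusted p-value, 1 under DESeq2, 0 under both limma fits and 0 to 1 with 1 library left out, and the cause was not tested. Among the latrophilin and FLRT partners 1 passed, and 2 under both limma fits, and among the noelin-associated receptors 5 passed, and 3 under DESeq2. For the neighbors, 121 of 156 values stayed on the same side of the threshold, 34 lost it and 1 gained it. Changes of direction were counted only where a neighbor passed the threshold in either fit, and there were 0. Atg4a-ps, which did not pass, changed sign, with log2 fold changes of -0.10 without control library 1, -0.16 without control library 3 and -0.03 without D-gal library 3.

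With the replicate number as a block (replicate block), 530 genes were called, and 0 of the other olfactomedin-domain genes passed. Same-numbered libraries did not deviate together (correlations of -0.011, -0.003 and 0.028), and the labels give no shared day or batch, so the numbers were not taken as pairs. Olfml1 and Olfml2a were fitted only without a filter and by DESeq2, which gave them no adjusted p-value. Depth limits Olfml1, Olfml2a, Olfm2 and Myoc.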
